A study of Mus musculus with 4 samples.

Results

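Fibroblasts with transcripts of the adventitial genes *Pi16*, *Dpp4*, *Clec3b* or *Pcolce2* were examined in single cell RNA-seq of mouse dorsal root ganglia (DRG), the clusters of sensory neuron cell bodies beside the spinal cord. They were chosen by their own counts of unique molecular identifiers (UMIs), each of which stands for 1 captured RNA molecule. A droplet barcode had to hold 600 to 15000 UMIs, 500 to 4000 genes and under 10% mitochondrial UMIs. It also needed at least 10 UMIs of *Col1a1*, *Col1a2* and *Dcn* together, at most 3 of the endothelial genes *Pecam1*, *Cldn5* and *Cdh5*, at most 4 of the macrophage C1q genes, and at least 2 of the 4 adventitial genes. Of 6975 deposited barcodes, 6095 passed the quality limits, 1306 of these were fibroblasts by the first conditions, and 244 met the whole gate. These 244 are called adventitial-gate fibroblasts here. The 1062 fibroblasts with at most 1 UMI of the 4 genes are called other fibroblasts, and 899 of them had none.

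The ganglia came from C57BL/6 mice of 8 to 12 weeks, without a transgene in the labels. Control ganglia were uninjured, and injury ganglia were collected 3 days after crush of the sciatic nerve, in which axons of the same neurons run. The labels name the lumbar 4 ganglion alone, the study's methods the lumbar 4 and 5 ganglia. Whole ganglia were dissociated with papain and collagenase and sorted for live cells. The study's methods state that only female mice were used for these libraries, which the labels do not give. There were 2 libraries per condition. The study calls the libraries of a condition biological replicates, and states that each batch pooled cells of several mice. Total depth was 5585909 UMIs in control replicate 1, 11210875 in control replicate 2, 11163177 in injury replicate 1 and 9477167 in injury replicate 2. The libraries held 46, 78, 65 and 55 adventitial-gate fibroblasts in that order, which summed to 214182, 327013, 300964 and 269355 UMIs. Replicate 2 of each condition had the higher mitochondrial share, with medians of 6.01% and 5.54% in the adventitial-gate fibroblasts against 3.16% and 3.46% in replicate 1. Where 4 values are given in a row below, they follow the order control 1, control 2, injury 1 and injury 2.

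Fibroblasts build the collagen-rich sheaths and partitions of nerves and ganglia. The outermost layer of a nerve is the epineurium, the sleeve around each bundle is the perineurium, and the loose tissue among the fibres is the endoneurium. Around the ganglia the coverings pass into the meninges of the spinal cord. Fibroblasts with *Pi16* and *Dpp4* are known from the adventitia of vessels and the fascia of many organs. *Pi16* encodes a membrane-anchored peptidase inhibitor of the CAP family, *Dpp4* a cell-surface dipeptidase that trims chemokines and incretins, *Clec3b* tetranectin, a plasminogen-binding lectin, and *Pcolce2* an enhancer of procollagen processing. In mm10 (GENCODE M21) these protein-coding genes lie at chr17:29317680-29330593 on the plus strand, chr2:62330073-62412231 on the minus strand, chr9:123150946-123157432 on the plus strand and chr9:95637601-95698096 on the plus strand, respectively.

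Most adventitial-gate fibroblasts had UMIs of *Clec3b* and most had UMIs of *Pi16*, while few had any of *Dpp4*. Of the 244 cells, 203 (83.2%) had a *Clec3b* UMI, 152 (62.3%) a *Pi16* UMI, 31 (12.7%) a *Pcolce2* UMI and 19 (7.79%) a *Dpp4* UMI. A UMI of *Pi16* or *Dpp4* was present in 160 cells (65.6%), and 81 of the other 84 were chosen by *Clec3b* alone. *Pi16* and *Clec3b* occurred together in 114 cells. Of the 31 cells with *Pcolce2*, 28 also had *Pi16*, and of the 19 with *Dpp4*, 11 did. Only 3 cells were chosen by *Dpp4* alone. The gate selected on these counts, so they describe the cells and are not a test. In macrophages, whose own expression of these genes was not tested, the share of barcodes with a UMI was 1.23% for *Pi16*, 1.23% for *Dpp4*, 0.663% for *Clec3b* and 0.0947% for *Pcolce2*. These were 1056 barcodes with more than 4 C1q UMIs, and their median depth of 4129 UMIs was close to the 4220.5 of the adventitial-gate fibroblasts. At 1000 UMIs per cell the *Dpp4* share was 2.05% in the adventitial-gate fibroblasts and 0.284% in the macrophage barcodes.

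Levels are given as CPM, the UMIs of a gene after scaling the summed cells of every library to the same total. In this 3′ method a molecule gives 1 UMI whatever its length, so CPM values are not scaled by length. Differences between genes in capture and read assignment were not examined, so levels compared between genes are approximate. *Pi16* stood at 2274, 1480.1, 1744 and 635 CPM, lowest in injury replicate 2. *Clec3b* stood at 1728, 929.6, 1592 and 1229 CPM. *Pcolce2* (107, 39.8, 79.7 and 3.71 CPM) and *Dpp4* (28.0, 12.2, 36.5 and 14.9 CPM) were far less abundant. The levels of all 4 genes overlapped between control and injury libraries, and *Pcolce2* rested on 1 UMI in injury replicate 2.

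The gate held cells of very unequal adventitial signal. The summed UMIs of the 4 genes had a median of 6 per cell and ranged from 2 to 138. At least 10 were found in 83 cells, while 58 cells sat just inside the threshold with exactly 2. Just outside it, 163 other fibroblasts had exactly 1. Genes that the gate did not use are given over the same bins. *Ly6a*, which encodes the surface protein Sca-1, averaged 107 ± 12.3 CPM (SD, n = 4 libraries here and below) in fibroblasts with 0 UMIs, 164 ± 73.6 at 1, 420 ± 379 at exactly 2, 885 ± 87.0 at 3 to 9 and 3492 ± 492 at 10 or more. The Wnt-binding *Sfrp4* went from 1835 ± 576 through 4954 ± 2882 at exactly 2 to 14558 ± 3237 at 10 or more. *Apod*, an apolipoprotein abundant in fibroblasts inside the nerve, went the other way, with 54041 ± 21810 CPM at 0, 36132 ± 14878 at exactly 2 and 3613 ± 1452 at 10 or more. The proteoglycan *Lum* (lumican) was at 6890 ± 1936 CPM at 0 and still at 6118 ± 2777 at exactly 2, then at 2014 ± 1070.0 and 355 ± 202. For *Ly6a* and *Sfrp4* as well as *Apod* and *Lum*, the mean at exactly 2 UMIs thus lay nearer to that at 0 than to that at 10 or more. *Cd34* was 248 ± 119, 286 ± 159, 320 ± 138 and 282 ± 207 CPM up to 9 UMIs and 1035 ± 419 beyond. These bins were made from the gate's own counts and were not tested against each other.

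**Figure D1:**
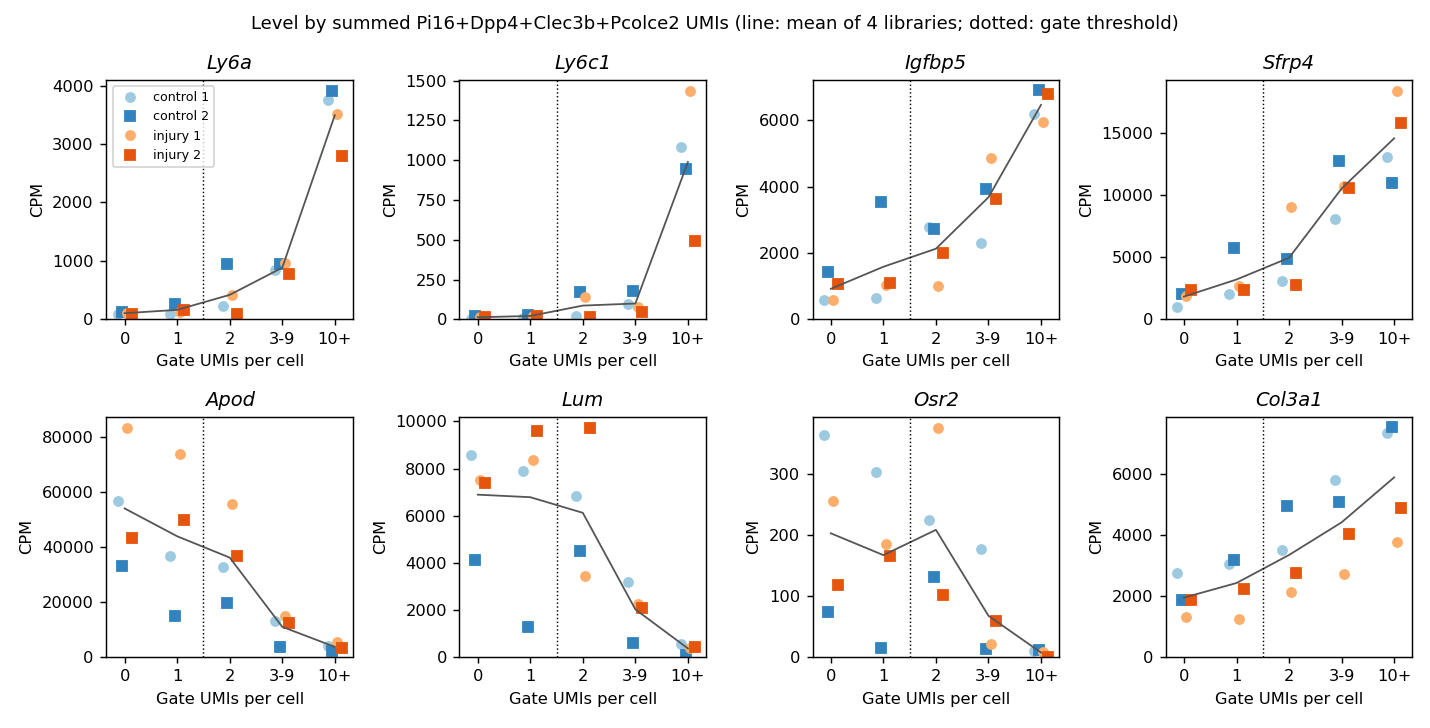
Level (CPM, linear axes from 0) of 8 genes outside the gate in fibroblasts binned by their summed *Pi16*, *Dpp4*, *Clec3b* and *Pcolce2* UMIs. Points are the 4 libraries, lines join their means, and the dotted line marks the gate. *Ly6a* averaged 420 CPM just inside the gate and 3492 CPM at 10 or more UMIs, whereas *Apod* averaged 36132 and 3613 CPM in the same bins.

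Cells with a *Pi16* or *Dpp4* UMI and those chosen without either also differed in level, a split that was looked at after the values were seen and not tested. *Ly6a* was 2719, 2174, 2683 and 1472 CPM in the 160 cells and 818, 886, 1009.9 and 497 CPM in the 84. *Ly6c1*, another Ly6 surface protein, was 751, 525, 1121 and 220.0 against 143, 84.4, 100.2 and 25.5 CPM. *Sfrp4* was at 9884, 10618, 13420.3 and 11699 against 7832, 9835, 14630.3 and 6919 CPM, higher in the cells with *Pi16* or *Dpp4* in 3 of 4 libraries.

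The share of adventitial-gate fibroblasts among all filtered barcodes overlapped between the conditions. They made up 3.54% of the filtered barcodes of control replicate 1 (95% exact Clopper-Pearson interval 2.60 to 4.69%), 5.82% of control replicate 2 (4.62 to 7.21%), 2.73% of injury replicate 1 (2.12 to 3.47%) and 5.11% of injury replicate 2 (3.87 to 6.602%). These intervals cover counting error only. The means were 4.68% ± 1.61 (SD, n = 2) in control and 3.92% ± 1.68 (SD, n = 2) in injury, a difference of -0.753 percentage points (exact two-sided permutation test, p = 0.667, where 2 against 2 libraries cannot go below 0.333). Within each condition replicate 2 was the higher, by more than the difference between conditions. Between libraries of the same number the injury share was the lower one in either replicate (2.73% against 3.54% and 5.11% against 5.82%). The permutation test does not use that pairing, and the labels give the number no meaning. Among fibroblasts alone the shares were closer, at 16.1%, 19.5%, 19.5% and 19.2%, with 17.8% ± 2.38 (SD, n = 2) in control and 19.3% ± 0.210 (SD, n = 2) in injury (exact permutation p = 1). With at least 3 gate UMIs the shares of fibroblasts were 11.6%, 14.8%, 15.3% and 14.98%, and with at least 4 they were 10.5%, 11%, 13.2% and 12.5%, so that both injury libraries lay above both controls (exact permutation p = 0.333 for either gate, the smallest that 2 against 2 libraries allow). Dissociation and live sorting precede these shares, and their part in them was not tested.

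**Figure D2:**
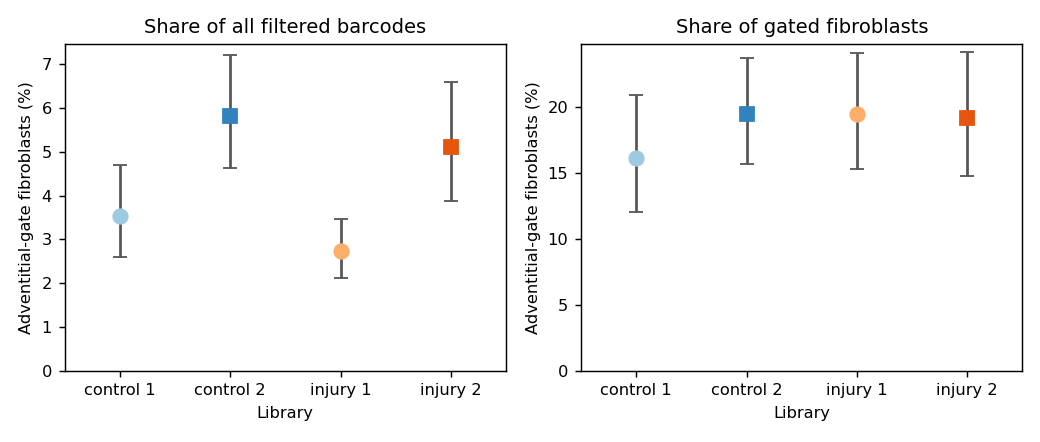
Adventitial-gate fibroblasts per library as a percentage of all filtered barcodes (left) and of all gated fibroblasts (right), with 95% exact binomial intervals. On the left replicate 2 of either condition (5.82% and 5.11%) lies above replicate 1 (3.54% and 2.73%), and on the right all 4 libraries lie between 16.1% and 19.5%.

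The most abundant transcripts of the adventitial-gate fibroblasts were *Malat1* (30932 ± 6884 CPM), *Dcn*, *Apod* (13682 ± 5149), *Sfrp4* (10936 ± 2057), *Gsn* (9322 ± 5806), *Sparc* (7839 ± 1734), *Fth1* (6059.5 ± 1386), *Cst3* (6034 ± 2043), *Ubb* (4744 ± 555) and *Col3a1* (4695 ± 1389). *Dcn* encodes decorin, a proteoglycan that coats collagen fibrils, and like *Col1a1* it was used by the gate. *Dcn* stood at 26725, 17112, 22684 and 20319 CPM in the adventitial-gate and at 49334, 23249, 45197 and 28242 CPM in the other fibroblasts. *Col1a1*, a chain of type I collagen, stood at 4482, 2691, 1665 and 2042 CPM. The *Dcn* level was the lower of the pair in the adventitial-gate cells of every library.

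Adventitial-gate and other fibroblasts from the same libraries differed in many genes that the gate did not use. UMIs were summed per library and kind of fibroblast and compared within libraries by the quasi-likelihood method of edgeR, with Benjamini-Hochberg adjustment over all 7501 genes tested outside the 13 genes named in the fibroblast and gene conditions. At an adjusted p under 0.05, 383 genes were higher in the adventitial-gate fibroblasts (5.11% of those tested) and 462 were lower (6.16%). With an absolute log2 fold change of at least 2 as well, the study's own limit, 67 were higher (0.893%) and 95 lower (1.27%). DESeq2 called 246 and 240, and with every cell thinned to 1000 UMIs 136 and 142 of fewer tested genes were called. The split was made on the cells' own counts, so the comparison describes what goes with the 4 gate genes among fibroblasts. The median depth was 4606.5, 3992, 4330 and 4406 UMIs per cell in the adventitial-gate and 3708, 3827.5, 4241 and 4612 in the other fibroblasts.

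Ly6 genes, *Dpt* and *Sfrp4* stood out on the higher side. *Ly6c1* was at 532, 398, 714 and 163 CPM in the adventitial-gate fibroblasts and at 6.27, 24.2, 15.5 and 14.4 CPM in the others, so the groups did not overlap (log2 fold change 4.71 ± 0.28 SE, edgeR with Benjamini-Hochberg adjustment, adjusted p = 2.87e-07). *Ly6a* was at 2036, 1801, 2017 and 1188 against 97.2, 144, 115 and 107 CPM (3.85 ± 0.14 SE, edgeR adjusted p = 1.67e-09), and 73.0% against 17.3% of cells had a UMI of it. At 1000 UMIs per cell these shares were 48.4% and 8.00%, with 3.22% of the macrophage barcodes. *Ly6a* (chr15:74994877-74998031, minus strand) and *Ly6c1* (chr15:75044018-75048830, minus strand) belong to a cluster of related genes. How the counting assigned reads among similar genes of the cluster was not examined, so the level of each single gene is uncertain to that extent. *Ly6c1* is also an endothelial gene. The remaining endothelial markers of the list were at most 9.12 CPM on average in the adventitial-gate fibroblasts, *Flt1* and *Robo4* among them at 0, and *Pecam1*, *Cldn5* and *Cdh5* were limited by the gate. *Dpt*, for the collagen-binding dermatopontin, was at 187, 79.5, 183 and 100.2 against 5.22, 5.86, 8.99 and 5.09 CPM (4.28 ± 0.23 SE). *Sfrp4* was both abundant and higher, at 9146, 10391, 13902 and 10306 against 1216, 2615, 2009.9 and 2373 CPM (2.40 ± 0.12 SE).

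The other named higher genes encode regulators, enzymes, receptors and secreted proteins. *Esm1*, for the secreted proteoglycan endocan, was at 177, 79.5, 56.5 and 156 against 23.0, 3.66, 0 and 7.63 CPM (3.86 ± 0.35 SE). The transcription regulators *Mn1* (116 ± 25.1 against 12.3 ± 6.59 CPM) and *Osr1* (136 ± 36.3 against 25.7 ± 6.52 CPM) had log2 fold changes of 3.15 ± 0.23 SE and 2.37 ± 0.22 SE. *Aldh1a2*, which makes retinoic acid, was at 107, 104, 156 and 163 against 20.9, 15.4, 13.1 and 16.1 CPM (2.98 ± 0.21 SE). *Ackr3*, a scavenging receptor for CXCL12, was at 299, 48.9, 189 and 29.7 against 40.7, 14.6, 23.7 and 8.48 CPM (2.52 ± 0.22 SE), with the higher values in replicate 1 of either condition. *Nppc* (C-type natriuretic peptide), *Lgals3* (galectin-3), *Dmkn* (dermokine), *Tppp3* and *Pi15* had log2 fold changes between 2.28 and 2.45. Named genes were chosen for having the same direction in all 4 libraries, so that trait is no result. Among the tested genes 15.7% were higher in all 4 and 13.8% lower. *Pi15* did not pass with cells thinned to 1000 UMIs (1.81, edgeR adjusted p = 0.109). All of these named genes passed the edgeR test with Benjamini-Hochberg adjustment, with adjusted p values from 1.67e-09 (*Ly6a*) to 0.000747 (*Dmkn*).

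*S100a8*, a calcium-binding protein of neutrophils, came out among the named genes with a log2 fold change of 2.74 ± 0.78 SE (edgeR adjusted p = 0.0354), and its value rested on 2 barcodes. It was at 42.0, 3137 and 19.9 CPM in the first 3 libraries and at 2784 in injury replicate 2. Of the UMIs of the neutrophil genes *S100a8*, *S100a9*, *Camp*, *Ngp* and *Ltf*, 1 barcode held 2676 of 2695 in control replicate 2, and 1 barcode held 1212 of 1263 in injury replicate 2. Among the other fibroblasts of injury replicate 2, 1 barcode held 1510 of 1720 such UMIs, and the removal below includes it. Without barcodes of 50 or more such UMIs, a choice made after the data were seen, the log2 fold change was 0.25 (edgeR adjusted p = 0.524). With the gate set after thinning to 2000 UMIs it reversed to -3.50 (edgeR adjusted p = 1.5e-06). The gene also did not pass by DESeq2, without the library block or without injury replicate 2 (3.85, edgeR adjusted p = 0.0653). *Camp* and *Lcn2* values given elsewhere for these cells rest on the same barcodes. Scrublet, a doublet caller that marked 37 of the 6975 barcodes, marked none of the 244.

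The 10 named lower genes were mostly scarce in the adventitial-gate fibroblasts, at 1.53 to 20.8 CPM on average. *Ttr*, for the thyroid hormone carrier transthyretin, had 2 UMIs in all adventitial-gate fibroblasts and 258 in the others, a ratio of 30.3 in favour of the others (95% exact counting interval 8.32 to 252). *Chad*, for the matrix protein chondroadherin, had 2 against 197 UMIs, a ratio of 23.2 (6.33 to 193), and its 2 UMIs were both in control replicate 2. *Pla2g7*, a phospholipase that degrades platelet-activating factor, was at 32.7, 15.3, 23.3 and 3.71 against 299, 168, 133 and 105 CPM (log2 fold change -3.28 ± 0.23 SE, edgeR adjusted p = 1.53e-06). It also occurs in macrophages, where 52.4% of the C1q-rich barcodes had a UMI. *Col9a2*, a chain of type IX collagen, was at 18.7, 21.4, 13.3 and 29.7 against 277, 128, 118 and 94.99 CPM (-2.84 ± 0.27 SE). The connexin gene *Gjb6* (9.48 ± 3.77 against 60.9 ± 8.50 CPM) and the ephrin gene *Efnb2* (6.03 ± 5.33 against 37.9 ± 6.403 CPM) were lower as well (-2.80 ± 0.31 SE and -2.79 ± 0.41 SE). *Cyp2s1*, a cytochrome P450, was at 3.59 ± 2.81 against 41.7 ± 19.995 CPM. *Ptgds* (prostaglandin D2 synthase), *Mt3* (a metallothionein) and *Gal* (the neuropeptide galanin) were lower mainly against the other fibroblasts of replicate 2, where *Ptgds* was at 88.6 and 152 CPM and at 5.22 and 8.99 CPM in replicate 1. *Ptgds* was at 1.21 without the mitochondrial limit (edgeR adjusted p = 0.454), which ended its call and turned its direction. *Gal* did not pass without injury replicate 2 (-2.13, edgeR adjusted p = 0.137) or by DESeq2, and neither *Gal* nor *Mt3* passed with the gate set after thinning (-1.76 and -1.65).

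**Figure D3:**
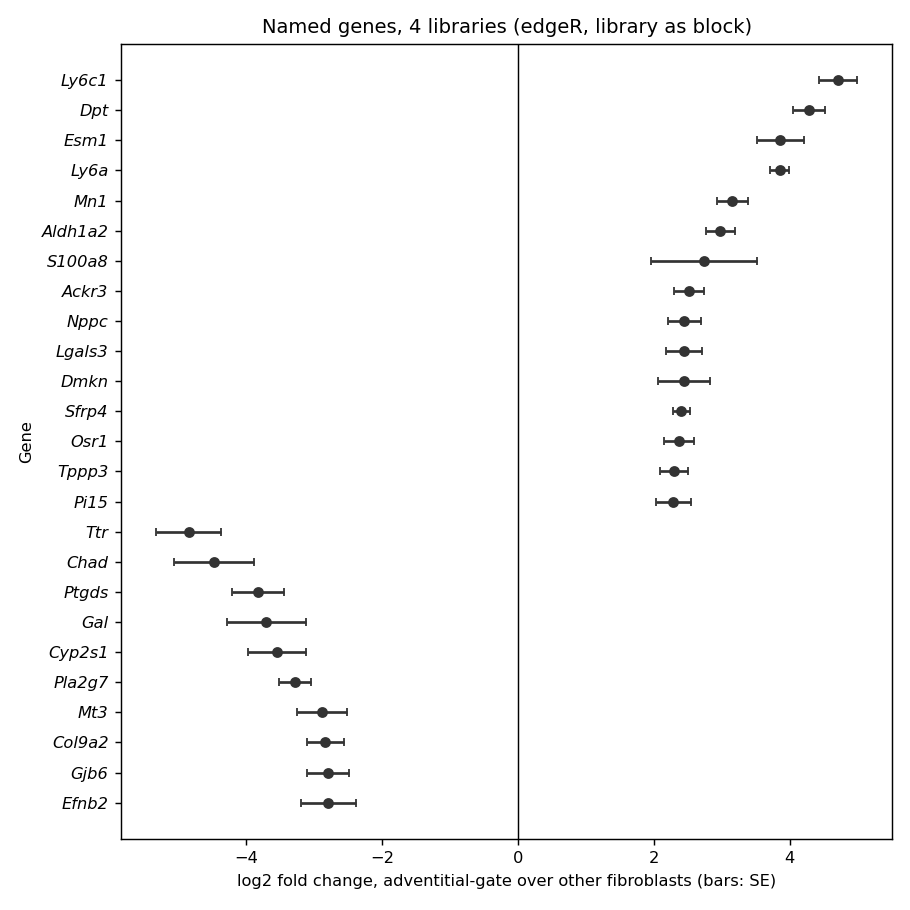
log2 fold change of the 25 named genes between adventitial-gate and other fibroblasts (edgeR, library as block), with bars of 1 SE. Values to the right of 0 are higher in adventitial-gate fibroblasts, from *Ly6c1* at 4.71 to *Pi15* at 2.28, and those to the left lower, from *Efnb2* at -2.79 to *Ttr* at -4.85, where the gate cells held 2 UMIs. The wide bar of *S100a8* goes with a value that rested on 2 barcodes.

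Markers known from adventitial fibroblasts of many organs were higher together. Of 25 such genes outside the gate, all of them tested, 20 were higher, none was lower and 5 did not pass, with a median log2 fold change of 1.43, against 5.11% higher and a median of -0.0026 over all genes. Beside *Ly6a*, *Ly6c1* and *Dpt* these were, among others, *Igfbp5*, a binding protein of insulin-like growth factors, at 4230.1, 4514, 4542 and 4158 against 599, 1764, 655 and 1081 CPM (2.17 ± 0.18 SE) and its relative *Igfbp6* at 4577 ± 579 against 2030.5 ± 640 CPM (1.17 ± 0.16 SE). *Cd34*, a sialomucin of progenitor, vascular and stromal cells, was at 952, 474, 608 and 264 against 419, 144, 271 and 184 CPM, with library values that overlapped between the kinds but were higher in each library (1.11 ± 0.16 SE, edgeR adjusted p = 0.000364). *Emilin2* (3.81 ± 0.43 SE), the hyaluronan synthase *Has1* (3.37 ± 0.54 SE), the protein C receptor *Procr* (2.76 ± 0.33 SE), *Cd248* (2.28 ± 0.26 SE), the complement regulator *Cd55* (2.07 ± 0.22 SE) and the semaphorin *Sema3c* (1.98 ± 0.34 SE) were also higher. *Has1* ranged from 12.2 to 215 CPM over the libraries. Of the leading genes of the study's mesenchymal cluster, which were picked on these samples, 9 of 10 were higher, and of those of its connective tissue cluster 9 of 9 tested were lower. *Efhd1*, *Creb5*, *Gfpt2*, *Limch1* and *Uchl1* did not pass, with log2 fold changes between -0.43 and 0.27. Of 9 tested epineurial markers, 4 were higher (*Ly6c1*, *Dpt*, *Sfrp4* and the cartilage oligomeric matrix protein gene *Comp*, 1.36) and 1, *Chad*, was lower.

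Most endoneurial genes and 7 of 12 tested perineurial genes were lower. Of 14 endoneurial markers, 13 were lower and none was higher (median -1.68, against 6.16% lower over all genes). *Apod* was at 13801, 6779.6, 19178 and 14969 against 52979, 30161, 81956 and 44284 CPM, without overlap (-1.99 ± 0.10 SE, edgeR adjusted p = 7.61e-08). *Lum* was at 2871, 1349, 1645 and 3267 against 8439, 3661, 7614 and 7784 CPM (-1.66 ± 0.14 SE). The cell cycle inhibitor genes *Cdkn2a* (-2.11 ± 0.20 SE) and *Cdkn2b* (-2.35 ± 0.16 SE), the transcription factors *Meox1* (-2.20 ± 0.21 SE) and *Osr2* (-1.42 ± 0.18 SE) and the eotaxin gene *Ccl11* (-1.14 ± 0.17 SE) were lower too, and *Cxcl14* did not pass (-0.02). Of 12 tested perineurial markers, 7 were lower, none was higher and 5 did not pass (median -1.86). A gene could pass the filter on low counts through the other fibroblasts. On the adventitial-gate sums alone 9 of the 14 endoneurial and 2 of the perineurial genes passed it. The counts of lower genes therefore describe these lists and are not tests of them. The summed level of the perineurial list was 331, 187, 193 and 293 CPM against 199.6, 620, 338 and 616 CPM. It was thus the higher one in control replicate 1. *Cldn1*, a tight junction protein of the perineurial barrier, was among the lower perineurial genes (-1.86), as was the glucose transporter *Slc2a1* (-1.86). *Lypd2*, the most abundant of the list in these cells, and *Krt19* did not pass (1.10 and 0.91). The study had picked 8 of the endoneurial and 9 of the 15 perineurial genes as cluster markers on these samples, so those counts are not independent evidence of a direction.

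Of the tested meningeal markers, more were higher than lower. Of 19 tested, 10 were higher, 2 were lower and 7 did not pass (median 0.69), against 5.11% higher and 6.16% lower over all genes, and 7 of the 23 genes of the list had been picked by the study on these samples. The imprinted transcript *H19* was at 985, 1697, 658 and 1775 against 203, 833, 186 and 506 CPM (1.66 ± 0.15 SE), *Igf2* from the same imprinted locus at 413 ± 147 against 171 ± 158 CPM (1.47 ± 0.25 SE), and the zinc finger gene *Zic1* at 316 ± 63.1 against 177 ± 53.0 CPM (0.82 ± 0.14 SE). *Aldh1a2* (2.98), *Ogn* (1.17) and *Crabp2* (1.08) were higher, *Ptgds* (-3.83, but 1.21 without the mitochondrial limit) and the transporter *Slc6a13* (-2.22) were lower, and *Foxd1*, *Foxc1*, *Foxc2* and *Slc47a1* did not pass (-0.07, 0.24, 0.06 and 0.47).

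Genes of a list of fibrillar and network collagens were mostly higher. Of its 18 genes tested outside the gate, 12 were higher and 2 lower (median 0.69), against 5.11% and 6.16% over all genes. *Col3a1*, the type III collagen of loose tissue, was at 5944, 5764, 3087 and 3987 against 2809, 2068, 1287 and 1917 CPM (1.17 ± 0.10 SE, edgeR adjusted p = 7.5e-06). The type V genes *Col5a1*, *Col5a2* and *Col5a3* (0.83 to 1.07), the type VI genes *Col6a1*, *Col6a2* and *Col6a3* (0.45 to 1.21) and *Col14a1* (1.49) were higher. *Col6a5* had the largest value (4.37) from 12, 7, 1 and 0 UMIs. The basement membrane-zone collagens *Col15a1* (-0.66 ± 0.18 SE) and *Col18a1* (-1.40 ± 0.25 SE) were the 2 lower genes of the list, which does not hold the lower *Col9a2* described above. Of 16 collagen processing genes, 7 were higher and none lower (5.11% higher over all genes), among them the crosslinking enzymes *Lox* (1.43 ± 0.15 SE) and *Loxl1* (1.49), the lysyl hydroxylase *Plod2* (264 ± 18.2 against 97.0 ± 25.7 CPM, 1.43 ± 0.15 SE) and *Sparc* (0.50 ± 0.10 SE). *Serpinh1*, the collagen chaperone, did not pass (0.24).

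Elastic fibre genes and small proteoglycans were divided. Over all genes 5.11% were higher and 6.16% lower, which are the shares to read the counts of these lists and of the proteases against. Of 16 tested elastic fibre genes, 9 were higher and 2 lower. The microfibril genes *Fbn1* (1.59 ± 0.18 SE), *Mfap5* (1.15 ± 0.15 SE) and *Mfap4* (1.05) and the fibulin *Fbln1* (1.27 ± 0.21 SE) were higher, while *Fbn2* (-2.18) and *Efemp1* (-0.60 ± 0.14 SE) were lower. Elastin itself, *Eln*, was at 0, 42.8, 3.32 and 14.9 CPM and did not pass the filter on low counts. Among the small leucine-rich proteoglycans *Aspn* (1.94 ± 0.20 SE), *Ogn* (1.17 ± 0.13 SE), *Omd* (0.80) and *Bgn* (0.70) were higher and *Lum* and *Podn* (49.1 ± 24.9 against 95.1 ± 38.0 CPM) lower. Of 22 proteases and inhibitors, 5 were higher and 4 lower. *Htra3*, a serine protease, was at 528, 532, 485 and 401 against 173, 189, 149 and 176 CPM (1.45 ± 0.12 SE). The inhibitor *Timp2* (0.89 ± 0.12 SE) was higher, while the gelatinase gene *Mmp2* (-0.99 ± 0.12 SE) and the inhibitor *Serpine2* (314 ± 118 against 964 ± 369 CPM, -1.67 ± 0.12 SE) were lower. *Mmp3* was also higher (3.81 ± 0.79 SE), with all 16 UMIs of control replicate 1 in 1 cell and 12 of the 17 of control replicate 2 in another.

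**Figure D4:**
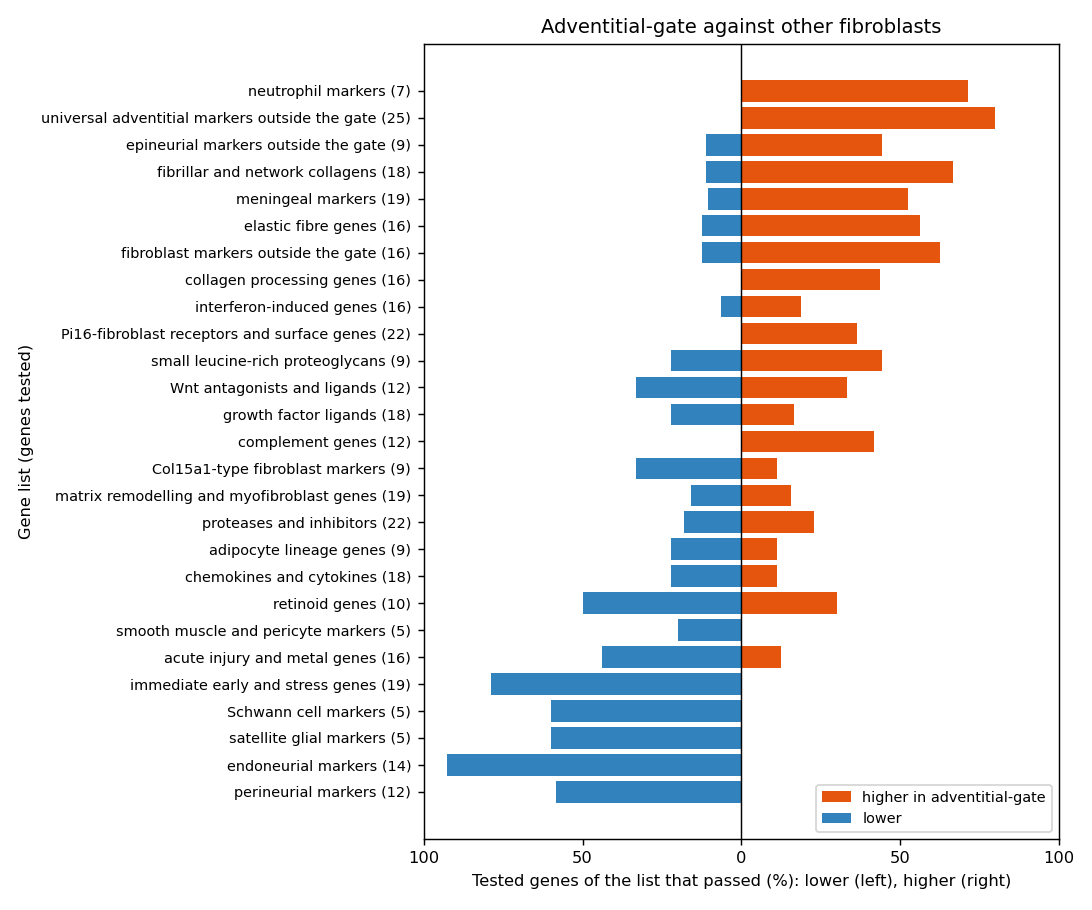
Share of tested genes of each list that were higher (right, orange) or lower (left, blue) in adventitial-gate than in other fibroblasts at an edgeR adjusted p under 0.05, ordered by the list's median log2 fold change, for lists with at least 5 tested genes other than the study's own cluster genes. Neutrophil markers, a list added after the values were seen, stand at the top with 5 of 7 higher and rest mainly on 2 barcodes, universal adventitial markers follow with 20 of 25, and immediate early, endoneurial and perineurial genes near the bottom with 15 of 19, 13 of 14 and 7 of 12 lower. A gene could pass the filter on low counts through either kind of fibroblast.

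Secreted signals were divided as well, where 5.11% of all genes were higher and 6.16% lower. Among 18 growth factor genes *Igf1* (859 ± 229 against 497 ± 94.3 CPM, 0.73 ± 0.16 SE), *Igf2* and the endothelial ligand *Angpt1* (1.30) were higher, and *Bmp7*, *Mdk* and *Ptn* were among those lower (-1.07 to -1.17). Of 12 Wnt pathway genes, 4 were higher and 4 lower. The secreted antagonists were on both sides, *Sfrp4* (2.40) and *Dkk2* (3.48) higher and *Sfrp5* (-1.73), *Frzb* (-1.01) and *Wif1* (-1.79) lower. Of the ligands, *Wnt2* was higher (39.2 ± 8.31 against 3.77 ± 0.784 CPM, 3.26 ± 0.38 SE) and *Wnt5a* lower (-0.89 ± 0.24 SE), and the Wnt amplifier *Rspo2* was higher (3.90 ± 0.56 SE). Among 18 chemokine and cytokine genes *Cxcl12* (660.0 ± 259 against 392 ± 104 CPM, 0.68 ± 0.13 SE) and *Csf1* (0.93 ± 0.25 SE) were higher and *Cxcl1* (-1.60 ± 0.14 SE), *Ccl11*, *Ccl7* (-0.85 ± 0.22 SE) and *Cxcl16* (-0.78) lower. *Il33* did not pass (-0.12).

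Immediate early genes were lower in the adventitial-gate fibroblasts. Of 19 tested, 15 were lower and none higher (median -1.24), against 6.16% lower over all genes. *Fos* was at 3175, 1339, 2695 and 1214 against 7824, 3233, 5295 and 3171 CPM (-1.28 ± 0.09 SE, edgeR adjusted p = 1.5e-06), and *Junb*, *Egr1* and *Socs3* had log2 fold changes of -1.24 to -1.28. The heat shock genes *Hspa1a*, *Hsp90aa1* and *Dnajb1* did not pass (-0.27 to -0.61). In both kinds of fibroblast the summed level of the list was higher in replicate 1, at 12839.5 and 11164 CPM against 6235 and 6865 CPM in replicate 2 for the adventitial-gate cells. The median mitochondrial share, at 3.16%, 6.01%, 3.46% and 5.54% in the adventitial-gate fibroblasts, was higher than the 2.37%, 5.14%, 2.95% and 4.39% of the other fibroblasts in every library, and its part in these values was not tested.

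Transcripts of other cell types were present in both kinds of fibroblast, at levels that differed between libraries. The 10 macrophage markers outside the gate summed to 23.3, 82.6, 26.6 and 100.2 CPM against 48.1, 43.9, 37.6 and 98.4 CPM in the other fibroblasts, with *Tyrobp* the most abundant and *Csf1r* and *Trem2* at 0. Of the 9 T cell and lymphoid markers, 8 were at 0. The 10 satellite glial markers, genes of the cells that wrap the neuron bodies, summed to 23.3, 183, 196 and 126 CPM against 65.8, 1167, 318 and 736 CPM, lower in every library, with *Fabp7* the most abundant (58.1 ± 37.1 against 311 ± 287 CPM). The 10 Schwann cell markers summed to 682, 893, 714 and 649.7 against 462, 2435, 365 and 1413 CPM, with *Pmp22* the most abundant, and the 8 neuron markers to 88.7, 104, 49.8 and 92.8 against 57.5, 459, 47.4 and 308 CPM. Both sums were higher in the adventitial-gate fibroblasts of replicate 1 and lower in those of replicate 2. Of 5 tested satellite glial genes 3 were lower, of 5 Schwann cell genes 3 and of 4 neuron genes 2, and none was higher (6.16% lower and 5.11% higher over all genes). Genes could pass the filter on low counts through the other fibroblasts. On the adventitial-gate sums alone 2, 3 and 1 genes of these lists passed it, so the counts describe the lists and are not a test of them. Lists of hemoglobin and neutrophil genes were added after the values were seen. The 4 hemoglobin genes summed to 51.4, 5740 (control replicate 2), 133 and 1934 CPM against 14.6, 74.7, 12.3 and 161 CPM, and 4 of 4 were higher (median log2 fold change 4.94). The 8 neutrophil genes summed to 163, 8455, 23.3 and 4774 against 140.0, 77.6, 33.5 and 1584 CPM, and 5 of 7 tested were higher (median 2.96). In the adventitial-gate fibroblasts these neutrophil values rest mainly on the 2 barcodes described above. The 1584 CPM of the other fibroblasts in injury replicate 2 rests mainly on 1 barcode of theirs. In injury replicate 1 the sum of the adventitial-gate fibroblasts was the lower one. The glial sums of the other fibroblasts were highest in replicate 2 of either condition, the libraries in which *Ptgds*, *Mt3* and *Gal* had their higher values, and the part of RNA from other cells in these lower genes was not tested.

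No gene passed the test between injury and control within the adventitial-gate fibroblasts. Of 4065 genes tested with edgeR on the 4 library sums, 0 were higher and 0 lower (0.0%) after Benjamini-Hochberg adjustment at 0.05, and no adjusted p was below 0.375. Before adjustment 101 genes (2.48%) had a p under 0.05, and DESeq2 called 0 higher and 0 lower. The libraries of the 2 conditions did not overlap for 1105 genes (27.2%), 511 of them higher and 594 lower after injury. On data simulated for this comparison the test recovered 74.5% of genes changed by 4-fold and 96.5% of those changed by 8-fold. The changed genes were drawn from the more abundant ones, with equal variability for every gene and no differences between replicates. These shares therefore do not carry over to scarce genes or to genes held by few cells. The count was not 0 under every setting: without the filter on low counts 10 were higher and 14 lower, without injury replicate 1 13 and 7, and without injury replicate 2 7 and 25, where the lone library was assumed to vary like the other group. With the replicate number as a block 4 were higher, namely *Igfbp2*, *Ptx3*, *Saa1* and *Ccl9*, and 3 lower, *Mmp3* among them, and whether the number marks a shared experiment is not given in the sources used here. Without the filter *Saa1*, *Ccl9*, *Mmp3*, *Ptx3* and *Igfbp2* were among the genes that passed, with edgeR adjusted p values from 4.5e-06 to 0.00341. The 10 genes with the smallest p are given as values.

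**Figure D5:**
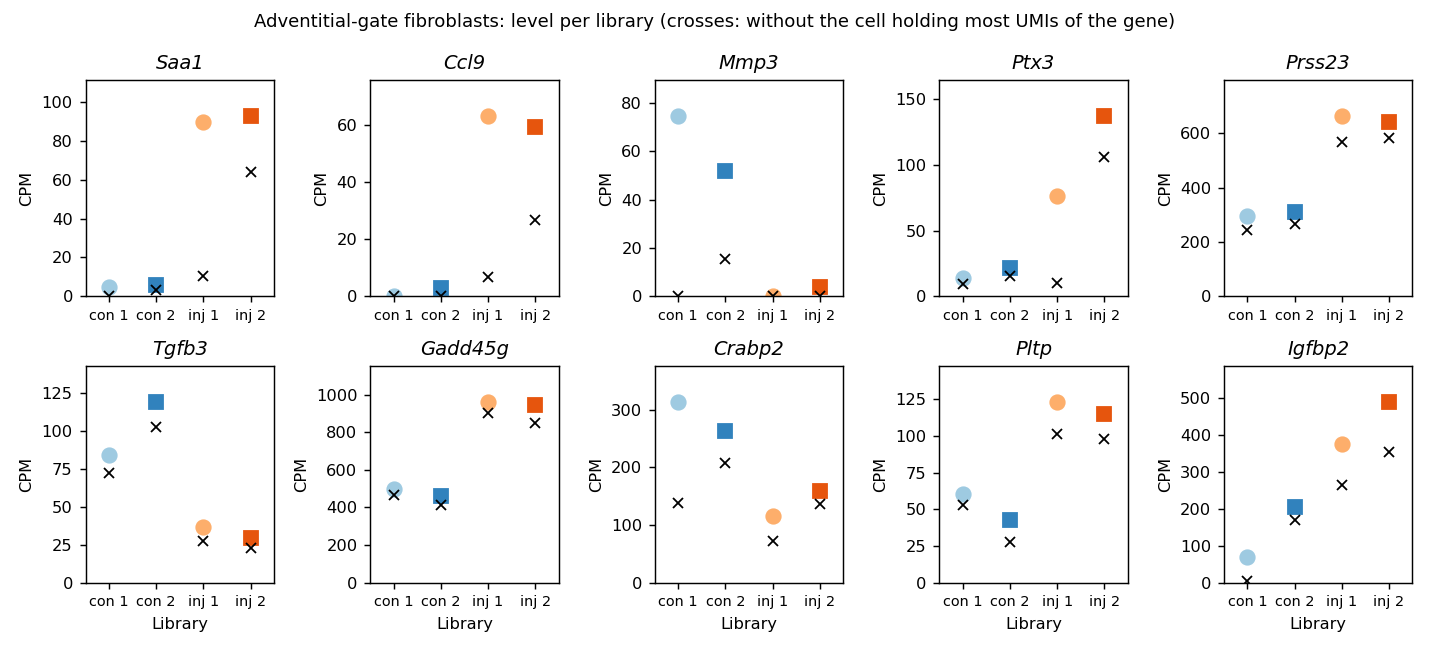
Level (CPM) per library of the 10 genes with the smallest p between injury and control in adventitial-gate fibroblasts. Coloured points are all cells of a library, and crosses leave out the cell with the most UMIs of the gene. For *Prss23*, *Gadd45g* and *Tgfb3* the crosses stay near the points, whereas *Saa1* in injury replicate 1 drops from 89.7 to 10.3 CPM.

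*Prss23*, a secreted serine protease, and *Gadd45g*, a stress-induced growth regulator, were found in many cells. *Prss23* was at 294 and 309 CPM in control and 665 and 642 CPM in injury libraries (log2 fold change 1.13 ± 0.25 SE, edgeR unadjusted p = 0.00228, adjusted p = 1), in 20, 39, 39 and 35 cells. *Gadd45g* was at 499.6 and 462 against 960.2 and 947 CPM (edgeR adjusted p = 1). The control and injury libraries of both genes lay apart, also without the cell of most UMIs, as did the libraries of 27.2% of all genes tested. Both genes were chosen for a small p, so this separation is no further evidence of a change. *Tgfb3* was at 84.0 and 119 against 36.5 and 29.7 CPM (-1.61 ± 0.39 SE), the retinoic acid-binding *Crabp2* at 313 and 263 against 116 and 160.0 CPM (-1.04 ± 0.28 SE) and the lipid transfer protein gene *Pltp* at 60.7 and 42.8 against 123 and 115 CPM (1.24 ± 0.34 SE). *Igfbp2* was at 70.0 and 205 against 375 and 490.1 CPM (1.62 ± 0.45 SE), in 2, 13, 10 and 11 cells. The log2 fold change was 1.07 without control replicate 1 and 2.68 without control replicate 2.

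The genes with the largest fitted folds rested on few cells. *Saa1*, an acute phase apolipoprotein with a near-identical neighbour, *Saa2*, was at 4.67 and 6.12 against 89.7 and 92.8 CPM (3.95 ± 0.53 SE, edgeR adjusted p = 0.375), and 1 cell held 24 of the 27 UMIs of injury replicate 1. Without the cell of most UMIs in each library it was at 0, 3.09, 10.3 and 64.2 CPM. The chemokine *Ccl9* was at 0 and 3.06 against 63.1 and 59.4 CPM, from 0, 1, 3 and 3 cells, and 51.2% of the macrophage barcodes had a UMI of it. *Mmp3* (stromelysin-1) was at 74.7 and 52.0 against 0 and 3.71 CPM, from 1, 2, 0 and 1 cells. *Ptx3*, a soluble pattern receptor, was at 14.0 and 21.4 against 76.4 and 137 CPM, and without the top cells at 9.65 and 15.5 against 10.3 and 106 CPM. In the other fibroblasts *Saa1* was at 26.1 and 25.6 against 232 and 197 CPM and *Ccl9* at 8.36 and 8.06 against 137 and 76.3 CPM.

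Of 16 genes of the same collagen list tested between injury and control, none passed. The list outside the gate summed to 10314 and 10069.9 CPM in control and 6320 and 7529 CPM in injury libraries of the adventitial-gate fibroblasts, and to 5542 and 4815 against 3523 and 4549.6 CPM in the others. *Col3a1*, the most abundant of them, had a log2 fold change of -0.71 ± 0.25 SE (edgeR unadjusted p = 0.0214, adjusted p = 1). Over all genes 2.48% had an unadjusted p under 0.05. Over the 16 collagen genes tested the median was -0.36 and 2 had an unadjusted p under 0.05, over the 11 chemokine and cytokine genes it was 0.40 and none had, and over the 18 immediate early genes it was 0.02 and none had. The median over all genes was -0.0020.

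The injury effect was not shown to differ between the 2 kinds of fibroblast. In the interaction test of edgeR, 0 of 7501 genes were higher and 0 lower (0.0%) by Benjamini-Hochberg adjusted p, 279 (3.72%) had an unadjusted p under 0.05, and DESeq2 called 0 higher and 0 lower. On data simulated in the same simplified way this test recovered 5% of genes changed by 4-fold and 62.5% of those changed by 8-fold. Most 4-fold differences would thus be missed in a design of this size and depth. Without control replicate 1 the counts were 11 and 16, and without control replicate 2 they were 7 and 10. The smallest adjusted p was 0.0872, for *Igfbp2*, which was at 42.8 and 259 against 38.4 and 120 CPM in the other fibroblasts, with a difference in log2 fold change of 2.55 ± 0.39 SE. Its call depended on the setting. It passed with at least 4 UMIs in the gate (edgeR adjusted p = 9.73e-05), with *Pi16* or *Dpp4* required (0.00594), without the mitochondrial limit (0.00679) and without control replicate 1 or control replicate 2, among others, and adjusted p values over the alternatives ranged from 2.98e-13 to 0.515, the latter against fibroblasts with 0 UMIs of the gate genes. *Prss23* in the others was at 120 and 207 against 108 and 177 CPM (interaction 1.29 ± 0.29 SE, edgeR adjusted p = 0.753). *Igf1* was at 560.3 and 798 against 1033 and 1043 CPM in the adventitial-gate and at 483 and 619 against 389 and 497 CPM in the other fibroblasts (0.90 ± 0.22 SE). *Fn1*, fibronectin, was at 317 and 468 against 243 and 215 CPM, and at 137 and 209 against 171 and 238 CPM in the others (-1.05 ± 0.26 SE). *Dnajb1* (1.60), *Sostdc1* (2.76), *Emp1* (-1.26), *Cxcl14* (1.60) and *Btg2* (0.88) had adjusted p values of 0.753 to 0.975 by edgeR, and *Camp* (-4.34) rested on the neutrophil-rich barcodes.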

How the data were processed

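Single cell RNA-seq was available for 4 libraries of dissociated mouse DRG, 2 control and 2 injury, grouped by their labels. The authors deposited raw counts, that is UMIs per gene and barcode in filtered Cell Ranger matrices of 33456 genes, which hold barcodes already called as cells and were not limited by the study's quality limits. Per the submitters' processing notes the tools were Cell Ranger and Partek and the build was mm10. Whether counting used strand is not given in the sources used here. The quality limits are those of the study's methods, read as UMIs per barcode. They kept 6095 barcodes, fewer than the cells the study reports, so the filtered barcodes are not the study's own set. The gene conditions, the gene lists and the comparisons were chosen with earlier results of these data known. Genes named in the conditions are described and never tested.

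UMIs were summed per library over the adventitial-gate fibroblasts and over the other fibroblasts, since cells are not replicates. The sums were fitted with edgeR 4.0.16 (R 4.3.3) by its quasi-likelihood test after TMM scaling and filterByExpr, with Benjamini-Hochberg adjustment over all genes tested and a call at an adjusted p under 0.05. The comparison between conditions used the group alone, and the other 2 comparisons used the library as a block. Named genes had an average log2 CPM of at least 5 and were not mitochondrial, ribosomal, hemoglobin or model genes. Of those called in the same direction in all 4 libraries, the 15 of largest positive and the 10 of largest negative log2 fold change were taken, and where fewer were called, the 10 with the smallest p. From each list, members of high level or small p were named beside these. The neutrophil and hemoglobin lists and the view of levels without the top cell were added after the values were seen. Each fit was tested on simulated data. CPM on library sums was computed from the counts without TMM. Alternatives were DESeq2 1.42.0, no filter on low counts, stricter gates, no mitochondrial limit, equal depth, removal of Scrublet-marked barcodes (37 of 6975, 0.530%), blocks and leaving out each library. Doublets were otherwise kept. Of the barcode sequences, 20 occurred in more than 1 library, 1 of them in an adventitial-gate fibroblast, and none was shared between the adventitial-gate fibroblasts of 2 libraries. Coordinates were matched by gene ID to GENCODE M21. *Cebpd* was not analysed here. Precision follows from the depth, with 214182 to 327013 UMIs per library sum. Some results of the lists are not reported here.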

Additional observations from a re-analysis of the deposited data

How the results depend on the processing

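Between adventitial-gate and other fibroblasts the count of genes higher and lower was 383 and 462. DESeq2 gave 246 and 240, no library block 173 and 190, and cells thinned to 1000 UMIs 136 and 142, while the limit of 2 on the log2 scale left 67 and 95. Leaving out each library gave 276 to 313 higher and 322 to 363 lower. The stricter gates, the other limits and the removal of marked barcodes stayed within 1.5 times. All 383 higher and all 462 lower genes kept their sign under DESeq2. With the gate set after thinning, 365 of 377 higher and 444 of 444 lower genes still tested kept it. With cells thinned to 1000 UMIs, 269 of 273 and 269 of 270 did. Of the named genes, *S100a8* reversed to -3.50 when the gate was set after thinning to 2000 UMIs, and *Ptgds* reversed to 1.21 without the mitochondrial limit. Calls were also lost for *S100a8* (DESeq2 adjusted p = 0.691, without the library block 0.428, without neutrophil-rich barcodes 0.524, without injury replicate 2 0.0653), *Gal* (DESeq2 0.128, gate after thinning 0.160, without injury replicate 2 0.137), *Mt3* (gate after thinning 0.0766) and *Pi15* (thinned to 1000 UMIs 0.109). *Ptgds* and *Mt3* had no value without the library block, without control replicate 2 or without injury replicate 2, so their calls were not checked there. *Gal* had none without the library block. With cells thinned to 1000 UMIs *Ttr*, *Chad*, *Gal*, *Cyp2s1*, *Mt3*, *Gjb6* and *Efnb2* had none. Within the adventitial-gate fibroblasts the injury comparison gave 0 and 0, but 10 higher and 14 lower without the filter on low counts, and leaving out each library gave 0 to 13 higher and 0 to 25 lower. The replicate block, which fits the number in the labels, gave 4 higher (*Igfbp2*, *Ptx3*, *Saa1* and *Ccl9*) and 3 lower (*Mmp3*, *Camp* and *Hba-a2*), with edgeR adjusted p from 0.00814 to 0.0132 for *Saa1*, *Ccl9*, *Mmp3*, *Igfbp2* and *Ptx3*. The labels give the number no meaning, there are only 2 pairs, and the deviations of same-numbered libraries correlated at 0.362 over 4071 genes. The difference in injury effect gave 0 and 0, but 5 and 11 without the filter, 2 and 5 with at least 3 UMIs in the gate, 4 and 4 with at least 4, 1 and 0 with a *Pi16* or *Dpp4* UMI required, 3 and 1 without the mitochondrial limit, 0 and 1 against fibroblasts with 0 UMIs, and 0 to 11 and 0 to 16 without a library in turn. *Camp* reversed there to 1.46 and 1.93 with the stricter gates and ranged from -10.26 to 0.60 without a library in turn, the latter without control replicate 2. The cause of these changes was not tested. The number of adventitial-gate fibroblasts was 186 and 154 with at least 3 and 4 UMIs, 160 with *Pi16* or *Dpp4* required and 150 when gated after thinning. The difference in their share between conditions ranged from -1.94 to 0.44 percentage points (without injury replicate 2 and without injury replicate 1), and reversed to 0.39 without control replicate 2. *Dpp4* and *Pcolce2* had a UMI in 19 and 31 of the 244 cells, and at this depth a cell without one may still express them.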

Other observations

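Complement, retinoid, interferon and metal-response genes gave further differences between adventitial-gate and other fibroblasts by edgeR with Benjamini-Hochberg adjustment. Of 12 tested complement genes, 5 were higher and none lower, against 5.11% higher and 6.16% lower over all genes, which also apply to the lists that follow. *Clu*, clusterin, was at 415 ± 78.1 against 239 ± 88.7 CPM (log2 fold change 0.79 ± 0.17 SE), and *Cfb* (2.72) and *Cd55* (2.07) were higher. The abundant inhibitor *Serping1* did not pass (-0.20). Of 10 retinoid genes, 3 were higher and 5 lower: the synthetic enzyme *Aldh1a2* (2.98) and the binding protein *Crabp2* (1.08 ± 0.23 SE) were among the higher, and the degrading enzyme *Cyp26b1* (-2.43 ± 0.58 SE), the retinol dehydrogenase *Rdh10* (-1.45) and the retinol receptor *Stra6* (-1.88) were among the lower. Of 16 interferon-induced genes, *Isg15* (0.75 ± 0.22 SE), *Bst2* (0.68 ± 0.14 SE) and *Ifi27l2a* (1.43 ± 0.29 SE) were higher, *Irf1* was lower (-1.13) and 12 did not pass. Of 16 acute injury and metal genes, 7 were lower, the metallothionein *Mt1* among them (-0.60). Of the 2 higher, *Il4ra*, an interleukin 4 receptor chain, was at 2.95, and *Lcn2* rested on the neutrophil-rich barcodes.

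Among surface receptors 8 of 22 tested genes were higher and none lower, *Tgfbr2* (0.93) and *Axl* (1.01) beside those named above, while the growth factor receptors *Pdgfra* (-0.06 ± 0.19 SE) and *Pdgfrb* (0.33) did not pass. Of 9 adipocyte lineage genes, the transcription factor *Klf4* was higher (1.19 ± 0.16 SE) and *Cebpb* (-1.18) and *Lpl* (-0.86 ± 0.20 SE) were lower, and *Pparg* had no UMI in these cells. Of 9 tested genes of the Col15a1-type fibroblast list, the methyltransferase *Inmt* was higher (1.72 ± 0.18 SE) and *Col15a1*, *Lpl* and *Lamb1* were lower. Of 19 matrix remodelling genes, 3 were higher, *Fn1* (0.65), *Ctgf* (39.7 against 13.0 CPM) and *Thbs2* (1.14 ± 0.15 SE), and 3 lower, *Tgfbi* (-1.91 ± 0.16 SE), *Thbs1* (-0.64) and *Ptx3* (-1.07). Of 4 tested cell cycle genes *Stmn1* was lower (-1.92), and of 5 smooth muscle and pericyte genes *Rgs5* was (-1.48). Among 16 general fibroblast markers 10 were higher and 2 lower.

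Outside the quality limits, 29 of 880 barcodes met the gene conditions, 2, 15, 2 and 10 by library. Of these, 22 exceeded the mitochondrial limit and 6 the UMI limit. Among filtered barcodes that were not gated as fibroblasts, 53 of 4789 (1.11%) had at least 2 UMIs of the 4 gate genes.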
